A study of Arabidopsis thaliana with 14 samples.

Results

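The micropylar endosperm of Arabidopsis thaliana seeds was compared with the cellularized endosperm, using the 2 arrays titled for each, 4 of the 14 arrays of the study. The arrays were taken by their titles. The study captured seed compartments by laser from sections of fixed, paraffin-embedded siliques and measured transcripts on Affymetrix ATH1 arrays, which read each gene through a set of short probes. The other 10 arrays, in pairs, hold whole seeds, embryo proper, general seed coat, chalazal seed coat and chalazal endosperm. All groups shared genotype Ws-0, a wild-type accession, and the linear-cotyledon stage, with embryos 175 ± 11 µm long. Siliques measured 1.6 to 1.9 cm and came from plants 38 to 46 days old under continuous light, and 2 to 5 ng of RNA per sample was amplified. The titles call both replicates of each group biological, and no label ties a replicate to particular plants, so the tests see only the variation among these samples.

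The endosperm is the seed tissue that feeds the embryo. In Arabidopsis it starts as a syncytium, and walls form first around the embryo at the micropylar pole and then along the seed's periphery, while the chalazal end stays a syncytium longest. The micropylar endosperm lies around the young embryo and its radicle, and in the ripe seed it is the tissue that must weaken before the radicle emerges. The peripheral, cellularized endosperm is gradually used up as the cotyledons grow, and part of it persists as a thin layer in the ripe seed.

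The description field of both micropylar arrays speaks of whole seeds, while title and source name give micropylar endosperm, and the title is followed here. Their values differed from those of the whole seed arrays. The marker lists used below were chosen with earlier results of these data known, so their sums only describe the arrays. The summed signal of 15 chalazal endosperm markers was 501 and 861 in the micropylar and 1007 and 747 in the cellularized endosperm, 3681 and 3960 in whole seeds and 105776 and 106340 in chalazal endosperm. For 11 seed coat markers the micropylar sums were 5922 and 4866 and the cellularized sums 1685 and 1748. They reached 40205 and 52809 in whole seeds, 36430 and 39041 in chalazal seed coat, and 75572 and 116177 in general seed coat. Of the 10 seed coat markers tested, 7 lay higher in the micropylar than in the cellularized endosperm on both arrays. The remaining 3 lay lower in the mean, among them THI2.1 with micropylar values of 5.53 and 10.6 and cellularized values of 22.6 and 5.35. For 9 embryo markers the micropylar sums were 1204 and 1270, the cellularized sums 1640 and 1882 and the embryo sums 6231 and 6783. Most of the cellularized sums came from 1 marker, PHV, and without it they were 617 and 655, against 1125 and 1011 in the micropylar endosperm and 5474 and 6516 in the embryo. LHW, with 811 and 659.6, made up most of these micropylar sums. Its mean was higher in chalazal seed coat, 2188, than in the embryo, 1747. The micropylar and whole seed arrays carry later identifiers than the other 10 arrays, so a difference between deposits cannot be told apart from the difference between the groups. Of the 7 embryo markers tested, 4 lay higher and 3 lower in the micropylar endosperm. Signal at the 3′ end over that at the 5′ end of a transcript rises as RNA degrades. For GAPDH it was 6.42 and 3.59 in micropylar and 7.16 and 5.78 in cellularized endosperm, and for actin 23.6 and 10.8 against 19.5 and 12.0, with overlap in both. For ubiquitin it was 6.03 and 7.495 against 10.3 and 8.88, lower on both micropylar arrays, and its part in the differences below was not tested.

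Levels are the authors' array signals, and differences are log2(signal + 16) in micropylar minus cellularized endosperm, from limma fitted over all 14 arrays. A probe set was called at an adjusted p below 0.05 and a difference of at least 2-fold. Of 15951 probe sets tested 1048 were called, which is 6.57%, with 679 (4.26%) higher and 369 (2.31%) lower in the micropylar endosperm. For all 1048 the groups did not overlap, while over all probe sets tested both micropylar arrays lay above both cellularized arrays for 28.4% and below for 23.2%. In captured tissue, fewer cells of a type and less RNA per cell cannot be told apart. The split depended on scaling. The array medians were 131 and 156 for the micropylar and 107 and 124 for the cellularized endosperm, and scaling the arrays to equal medians lowered the median difference of all probe sets by 0.28 and gave 410 (2.57%) higher and 633 (3.97%) lower. Quantile normalization lowered it by 0.11 and gave 523 (3.28%) higher and 309 (1.94%) lower. Every direction reported below for a called gene was the same under both scalings.

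**Figure D1:**
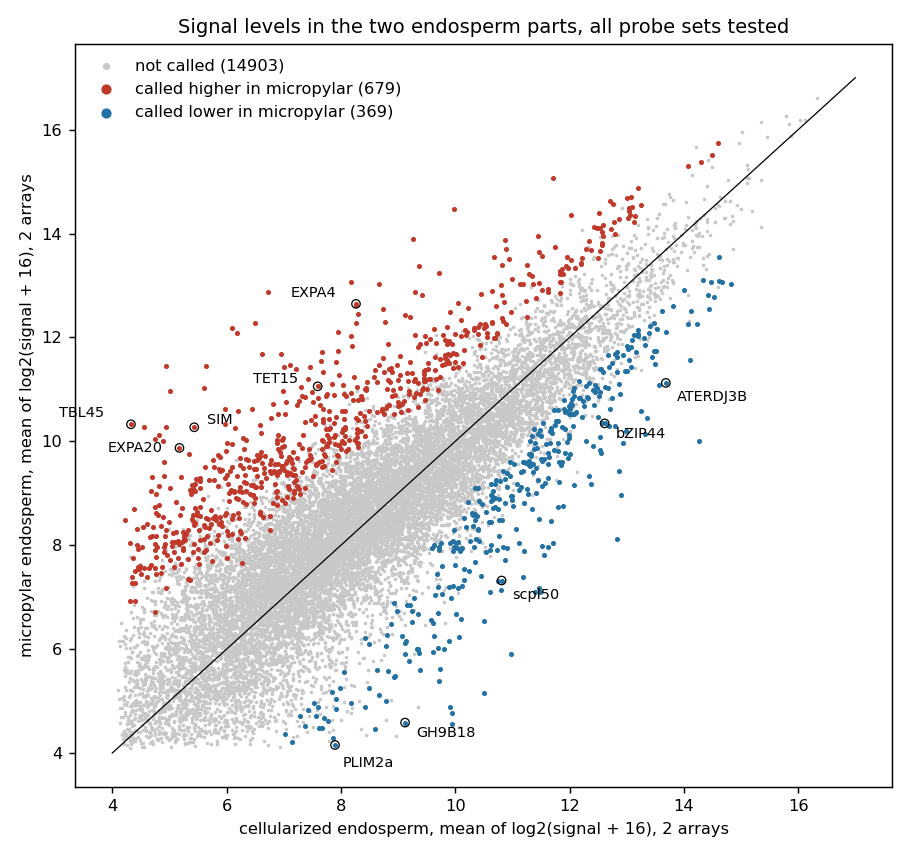
Each point is 1 of the 15951 probe sets tested, with its mean log2(signal + 16) over 2 arrays in the cellularized endosperm on the horizontal axis and in the micropylar endosperm on the vertical axis. The 679 called higher (red) and 369 called lower (blue) lie above and below the diagonal, and EXPA4 and ATERDJ3B are among the circled genes with high signal.

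Replicate arrays differed by a median of 0.50 in the micropylar and 0.56 in the cellularized endosperm, on the absolute log2 scale. Between the groups the median was 0.71 to 0.78 over the 4 possible pairs of arrays. The share of probe sets over 2-fold apart was 21.5% and 26.6% between replicates and 36.0% to 39.0% between groups. Of the 15 pairs of compartments, the micropylar and cellularized endosperm had the fewest probe sets called. The next lowest count was 2331 (14.6%), between the seed coat parts. The embryo differed from the micropylar endosperm at 2433 (15.3%) and from the cellularized endosperm at 2442 (15.3%), and the highest count was 6294 (39.5%), for embryo against chalazal endosperm. These counts share arrays, and no test compared them.

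TBL45, SIM and EXPA20 were given as markers of this comparison, chosen with earlier results of these data known. They had the 3 largest rises among called genes with a symbol. Their rank, calls and lack of overlap therefore only describe them. TBL45 belongs to the trichome birefringence-like family, whose studied members acetylate wall polysaccharides. Its signal was 1625 and 993 in the micropylar and 3.23 and 4.93 in the cellularized endosperm, a difference of 6.003 (SE 0.57, adjusted p = 3.23e-05). The cellularized values lie below the pseudocount, so the size depends on it, with 7.99 at a pseudocount of 1 and 4.29 at 64. SIM, the only 1 of 3 tested endocycle genes called (6.57% over all probe sets), encodes SIAMESE, an inhibitor of cyclin-dependent kinases that turns dividing cells to endoreduplication. It gave 1533 and 969.9 against 54.9 and 10.4, a difference of 4.84 (SE 0.86, adjusted p = 0.00253). EXPA20 is an expansin, a protein that loosens cell walls without cutting their polymers. It gave 581 and 1459 against 16.2 and 24.6, a difference of 4.70 (SE 0.65, adjusted p = 0.00043). For none of the 3 did the groups overlap, and each stayed called under all 15 alternatives.

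These genes were not all highest in the micropylar endosperm. In general seed coat the mean signal was 3136 for SIM, above its micropylar mean of 1252. For TBL45 it was 1121, near the micropylar 1309. For EXPA20 it was 257, below the micropylar 1019.7. Seed coat markers were also higher on the micropylar arrays, as given above, and their part in these differences was not tested.

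Some wall-loosening genes were higher in the micropylar endosperm. Of 13 tested expansins and xyloglucan endotransglucosylase/hydrolases (XTHs, enzymes that cut and rejoin xyloglucan), 5 were higher and 0 lower, against 4.26% and 2.31% of all probe sets. The list's median was 1.55, where that of all tested was 0.08, and with equal medians the count was again 5 and 0. Levels of the list's remaining 14 genes on the array did not reach the filter. A gene could pass it on the 2 micropylar arrays alone, and XTH32 and EXPA9 did not pass the filter on 4 arrays. EXPA20, also among the 5, was given as a marker of this comparison. The count and median therefore only describe the genes that passed.

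EXPA4 had the highest signal of the called members, 6967 and 5873 on the micropylar and 336 and 252 on the cellularized arrays, a difference of 4.38 (SE 0.60, adjusted p = 0.000364). In no other compartment did its mean exceed 329.7, that of the embryo. XTH32 gave 809 and 886 against 1.43 and 78.0, and the cellularized replicates were far apart (difference 4.41, SE 0.89, adjusted p = 0.00606). EXPA9 gave 496 and 236 against 2.41 and 2.96, a difference of 4.26 (SE 1.00, adjusted p = 0.0155). The expansin-like gene EXLA1 gave 1077 and 986 against 103 and 330.1 (difference 2.37, SE 0.42, adjusted p = 0.00265), far below its mean of 28184 in general seed coat. The groups were apart for all 5. The call of XTH32 ended without micropylar replicate 1 (0.0624), micropylar replicate 2 (0.0571) or cellularized replicate 1 (0.0949), and that of EXPA9 ended without any 1 of the 4 arrays (0.058 to 0.163). Here and below, the number in brackets behind an alternative that ended a call is its adjusted p. EXPA4, EXPA20 and EXLA1 stayed called under all 15 alternatives.

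Among the 8 members not called, values ran both ways. EXPA21 gave 117 and 409.9 against 38.9 and 4.21, a difference of 2.84 (SE 0.92, adjusted p = 0.0732). EXLA2 lay in the other direction with 2.30 and 4.31 against 39.6 and 85.3, a difference of -1.96 (SE 0.76, adjusted p = 0.137).

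Other wall genes split. Of 15 tested trichome birefringence-like genes 4 were higher and 1 lower (4.26% and 2.31% over all probe sets), and with equal medians 2 and 1, with a list median of 0.15 that turned to -0.10. TBL45, among the 4, was given as a marker of this comparison, so these counts only describe the members. TBL28 gave 296 and 554 against 11.8 and 34.4, a difference of 3.49 (SE 0.74, adjusted p = 0.00816). TBL36 gave 239.5 and 257 against 51.9 and 3.23 (difference 2.87, SE 0.79, adjusted p = 0.0358), and TBL38, a gene of seed coat epidermis, 354 and 112 against 55.9 and 12.6 (difference 2.26, SE 0.66, adjusted p = 0.0457), beside a mean of 27684 in general seed coat. TBL32 was the member that was lower, with 3283 and 3204 against 7796 and 7914, a difference of -1.27 (SE 0.27, adjusted p = 0.00801). TBL45 stayed called under every alternative. The call of TBL28 ended without micropylar replicate 2 (0.0964) or cellularized replicate 1 (0.0773). That of TBL36 ended without micropylar replicate 1 (0.17), micropylar replicate 2 (0.16) or cellularized replicate 2 (0.271) and under 3 of the other 11 alternatives (0.0543 to 0.0985). That of TBL38 ended without micropylar replicate 1 (0.395), cellularized replicate 1 (0.0509) or cellularized replicate 2 (0.298) and under 8 of the other 11 alternatives (0.0518 to 0.125). That of TBL32 ended without any 1 of the 4 arrays (0.0536 to 0.0635) and without the variance trend (0.0791).

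Among called genes with a symbol, the largest fall was in GH9B18. This gene encodes an endoglucanase of glycosyl hydrolase family 9, enzymes that act on cellulose. Its signal was 9.19 and 6.88 on the micropylar and 414 and 707 on the cellularized arrays, a difference of -4.54 (SE 0.87, adjusted p = 0.00427), and the groups did not overlap. The call ended without cellularized replicate 2 (0.0547). It was the only called gene of 12 tested in the list of cellulose, callose and endoglucanase genes (6.57% over all probe sets). GH9C1, of the same family, had much higher signals of 8015 and 8014 against 23282 and 26174, apart in every array but not called (difference -1.62, SE 0.73, adjusted p = 0.213).

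**Figure D2:**
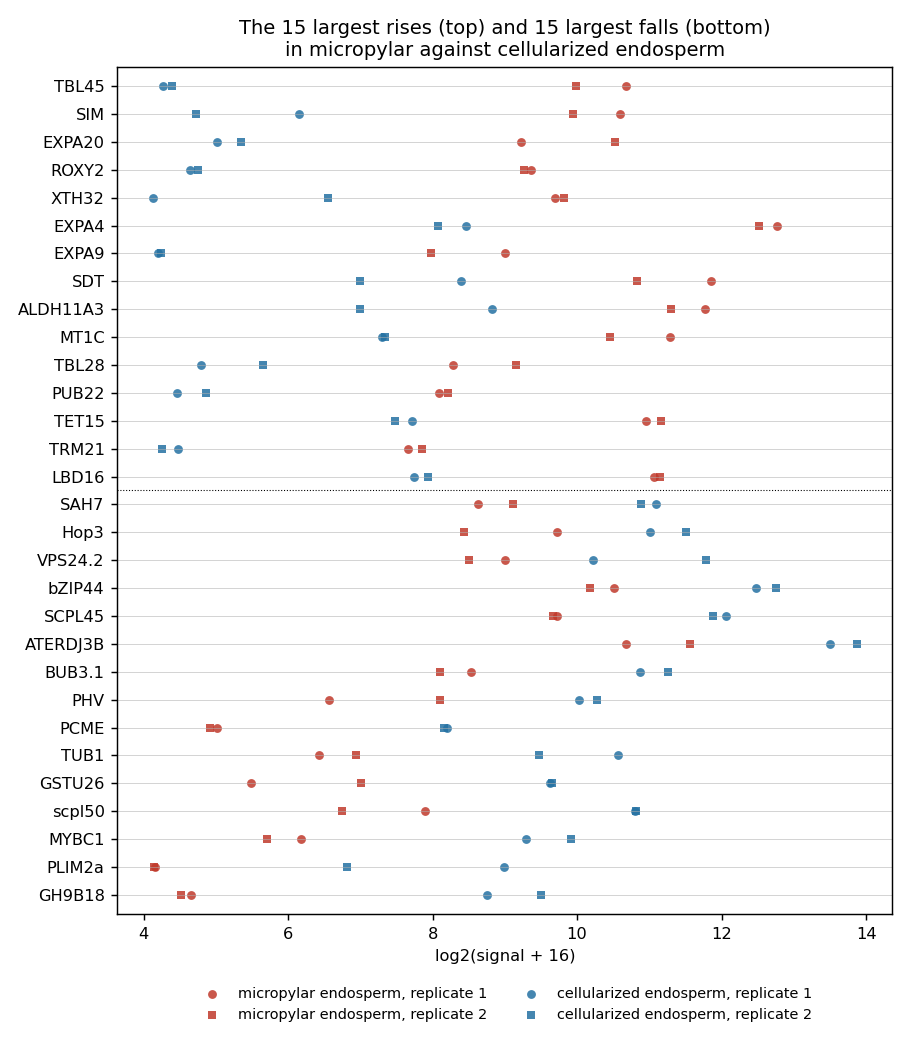
Signal of the 15 largest rises and 15 largest falls among called genes with a symbol, as log2(signal + 16), with 1 point per array (red for micropylar, blue for cellularized endosperm, circle for replicate 1, square for replicate 2). Genes were chosen so that both red points lie on 1 side of both blue points. From top to bottom of the rises the first is TBL45, with a difference of 6.003, and the smallest fall is SAH7, with -2.12.

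Genes of flavonoid and phenolamide synthesis were higher in 3 of 9 tested and lower in 0 (4.26% and 2.31% over all probe sets), the same with equal medians, and the list's median was 1.54. SDT transfers sinapoyl groups to spermidine in seeds. It gave 3678 and 1807 against 320.2 and 111, a difference of 3.65 (SE 0.81, adjusted p = 0.0108), and its mean was 895 in the embryo and 7.85 in general seed coat. SHT, the related acyltransferase known from pollen coat synthesis, ran the other way with 357 and 592 against 1833 and 988 and was not called (difference -1.52, SE 0.69, adjusted p = 0.22).

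DFR (dihydroflavonol reductase) and BAN (anthocyanidin reductase) make the precursors of seed coat tannins. DFR gave 742 and 544 against 71.3 and 145 (difference 2.46, SE 0.43, adjusted p = 0.00245). BAN gave 175 and 176 against 5.67 and 23.3 (difference 2.72, SE 0.60, adjusted p = 0.0104). In chalazal seed coat their means were 13134 and 1967, so the micropylar levels were low beside the tissue in which these genes are known to act. DFR stayed called under all 15 alternatives. The call of SDT ended without micropylar replicate 1 (0.147) or cellularized replicate 2 (0.116) and with a pseudocount of 1 (0.0629). That of BAN ended without micropylar replicate 1 (0.0862), micropylar replicate 2 (0.0701) or cellularized replicate 1 (0.0891).

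BAN, DFR, TBL38 and ARA12 are also the 4 of 10 tested seed coat markers that were higher, where 4.26% of all probe sets were. ARA12, a subtilisin-like protease of the seed coat and other tissues, gave 1814 and 2285 against 301 and 354 (difference 2.58, SE 0.30, adjusted p = 0.000193) and had a mean of 24137 in general seed coat. Both micropylar arrays lay above both cellularized arrays for 7 of the 10 seed coat markers, where 28.4% of all probe sets did. What part seed coat RNA had in these values was not tested. For the 14 tested chalazal endosperm markers 0 were called, where 6.57% of all probe sets were. PHV was the only 1 of 7 tested embryo markers called, and it was lower.

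Plastid-encoded genes lay higher in the micropylar endosperm, and 37 passed the test. All 69 on the array were tested, and for each of the 69 both micropylar arrays exceeded both cellularized arrays, as for 28.4% of all probe sets. The share called higher over all probe sets was 4.26%. None was lower, and they had a median difference of 1.14. With equal medians 14 were called higher and 0 lower, and psbL, a small photosystem II subunit, moved from 0.27 to -0.04. With quantile normalization the counts were 35 and 0. Their share of each array's summed signal was 6.33% and 7.06% in the micropylar endosperm and 3.46% and 3.16% in the cellularized endosperm, and 1.85% to 4.82% on the other 10 arrays. Plastid genes are transcribed together in long units, so the 69 are not separate observations.

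Genes of the plastid NADH dehydrogenase-like complex, which passes electrons around photosystem I, had the highest median of the plastid classes, 1.72, and 6 of 10 were called. ndhD gave 13989 and 11633 against 3542 and 2251, a difference of 2.17 (SE 0.35, adjusted p = 0.00128). ndhE gave 23211 and 20248 against 5909 and 5825, a difference of 1.88 (SE 0.28, adjusted p = 0.00061). Among the 15 ribosomal protein genes 9 were called, among the 15 of photosystem II 7, among the 6 of ATP synthase 4, and among the 6 of cytochrome b6f 3. The largest single difference was in petL, a small cytochrome b6f subunit, with 5930.3 and 3512 against 1228 and 489.6 (difference 2.53, SE 0.47, adjusted p = 0.00374). Of the 5 genes for photosystem I, psaA alone was called, with 22946 and 30809 against 8425 and 8793 (difference 1.63, SE 0.26, adjusted p = 0.00135). rbcL, for the large subunit of Rubisco, was 30120.5 and 59622 against 20476 and 19661 (difference 1.08, SE 0.25, adjusted p = 0.0151), with micropylar replicate 1 much closer to the cellularized arrays than replicate 2. ndhD, ndhE, ndhG and psaA stayed called under all 15 alternatives. The call of petL ended without micropylar replicate 1 (0.087) or cellularized replicate 2 (0.066), and that of rbcL without micropylar replicate 2 (0.214), cellularized replicate 1 (0.0795) or cellularized replicate 2 (0.0971), with equal medians (0.0681), without the variance trend (0.182) and below 2-fold with quantile normalization. Between 13 and 26 plastid genes were called when a single array of the 4 was left out, the fewest without cellularized replicate 2.

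**Figure D3:**
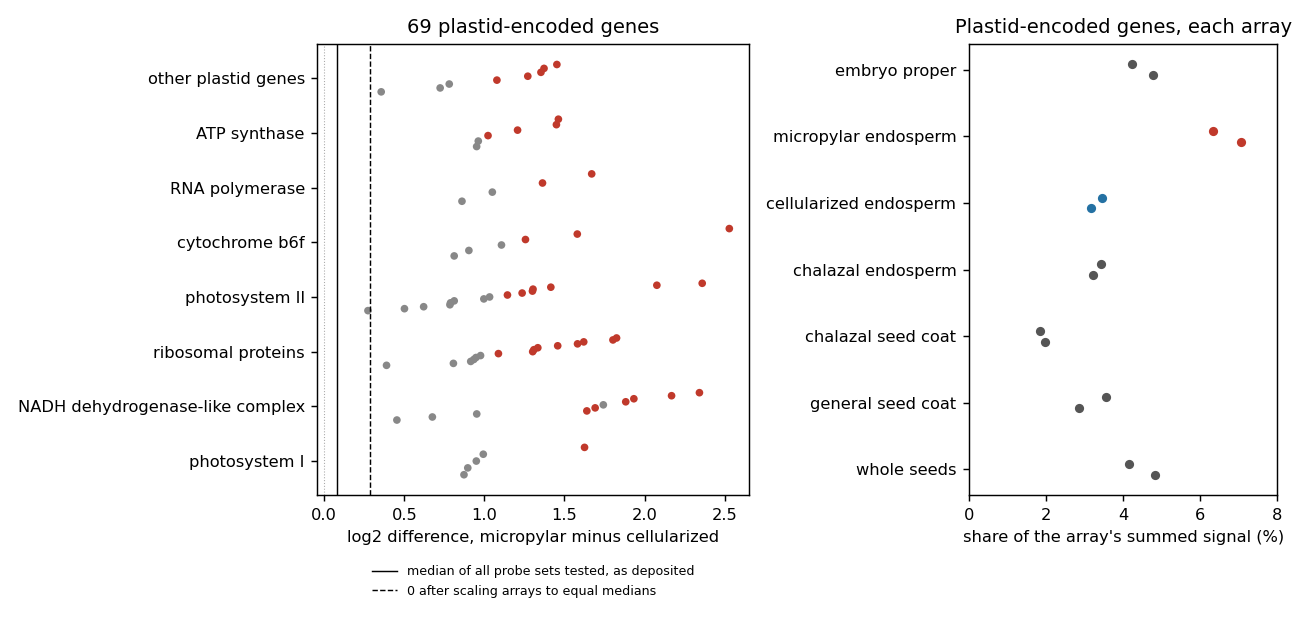
Left, the log2 difference (micropylar minus cellularized) of the 69 plastid-encoded genes by class, with called genes in red, the median of all probe sets as a solid line and the position of 0 after scaling to equal medians, which only psbL lies below, as a dashed line. Right, the share of summed signal taken by these genes on each of the 14 arrays, with the micropylar arrays at 6.33% and 7.06% and every other array at 4.82% or less.

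Nuclear genes for photosynthesis lay in the same direction. Of 17 tested 7 were higher and 0 lower (4.26% and 2.31% over all probe sets), with a median of 1.13, and with equal medians 4 and 0. RCA, Rubisco activase, gave 1603 and 2535 against 266 and 408 (difference 2.56, SE 0.47, adjusted p = 0.00329). PSB27, a photosystem II assembly protein, gave 2647 and 3262 against 779.8 and 427 (difference 2.32, SE 0.45, adjusted p = 0.00467). NdhS, a nuclear subunit of the NADH dehydrogenase-like complex, gave 1947 and 1899 against 396 and 98.2 (difference 3.16, SE 0.79, adjusted p = 0.0222). The light-harvesting gene LHCB4.2 gave 2795 and 3016 against 747 and 689.8 (difference 1.99, SE 0.39, adjusted p = 0.0048). The other 3 called were LHCB4.1 (difference 1.03, SE 0.28, adjusted p = 0.0355), PSAE-1 of photosystem I (difference 1.51, SE 0.37, adjusted p = 0.0197) and PSBY of photosystem II (difference 1.24, SE 0.31, adjusted p = 0.0227). In the embryo, which is green at this stage, RCA had a mean of 2266, near the micropylar 2069. LHCB4.2 and PSB27 had embryo means of 1934 and 1076, below the micropylar 2906 and 2954. Embryo markers other than PHV summed to more in the micropylar than in the cellularized endosperm, as given above. LHW, with 811 and 659.6 against 311 and 445, made up most of the micropylar sum. Its mean was higher in chalazal seed coat, 2188, than in the embryo, 1747. BBM, JKD and STOMAGEN were also higher in the mean, while YAB3 and YAB5 were lower. The part of embryo markers in these differences was not tested. Fewer of the 17 were called whichever array of the 4 was left out, and these 7 calls all ended without micropylar replicate 2. Such fits leave 1 array in a group. The list's median difference was 1.19 without micropylar replicate 1 and 1.20 without replicate 2. Without cellularized replicate 1 it was 1.34, and without replicate 2 it was 0.95.

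A few other metabolic and membrane genes were higher. ALDH11A3, a glyceraldehyde-3-phosphate dehydrogenase that works without phosphate, gave 3473 and 2505 against 439 and 111, a difference of 3.63 (SE 0.55, adjusted p = 0.00083), and stayed called under all 15 alternatives. Of 12 tested sugar transport genes 2 were higher (4.26% over all probe sets), and the median of the list was -0.18. SWEET7 gave 1302 and 1874 against 227 and 159 (difference 2.94, SE 0.61, adjusted p = 0.00717). AtVEX1, also named SWEET5, gave 1362 and 1474 against 141 and 208 (difference 2.93, SE 0.70, adjusted p = 0.0167). SWEET proteins carry sugars across membranes down a gradient. SWEET11, known to release sucrose in seed coat and endosperm, gave 4165 and 5868 against 9126 and 13294, apart in the other direction but not called (difference -1.15, SE 0.65, adjusted p = 0.343). The call of SWEET7 ended without micropylar replicate 2 (0.0839) or cellularized replicate 2 (0.0651). That of AtVEX1 ended without any 1 of the 4 arrays (0.0609 to 0.117) and with a pseudocount of 1 (0.0696).

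AMY1, an alpha-amylase that breaks down starch, was the only 1 of 5 tested starch genes called (6.57% over all probe sets), with 2005 and 2542 against 338 and 424 (difference 2.53, SE 0.59, adjusted p = 0.0149). Its highest mean in another compartment was 271. Of 10 tested tetraspanin genes, which encode membrane proteins with 4 spans, 2 were higher (4.26% over all probe sets). TET15 gave 1969 and 2279.8 against 194 and 162 (difference 3.47, SE 0.58, adjusted p = 0.00188) and stayed called under all 15 alternatives, and its embryo mean was higher still, 3919. TET3 gave 3658 and 3739 against 1560.2 and 1184 (difference 1.43, SE 0.39, adjusted p = 0.0351). The call of AMY1 ended without any 1 of the 4 arrays (0.0633 to 0.122), and that of TET3 without any 1 of the 4 arrays (0.0853 to 0.189), with equal medians (0.112) and without the variance trend (0.077).

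Of 10 tested dehydration genes and metallothioneins 4 were higher and 0 lower (4.26% and 2.31% over all probe sets), and 3 with equal medians. MT1C, a small metal-binding protein, gave 2478 and 1382 against 142 and 146 (difference 3.55, SE 0.81, adjusted p = 0.0138). The dehydrin COR47 gave 1895 and 1740.3 against 161 and 195 (difference 3.25, SE 0.79, adjusted p = 0.0188). DI21 gave 914 and 842 against 134 and 122 (difference 2.63, SE 0.50, adjusted p = 0.00381), and the lipocalin TIL 8984 and 12687 against 3895 and 3901 (difference 1.45, SE 0.31, adjusted p = 0.00918). The call of MT1C ended without any 1 of the 4 arrays (0.0549 to 0.152) and without the variance trend (0.0627), that of COR47 without any 1 of the 4 arrays (0.0807 to 0.135) and without the variance trend (0.0752), that of DI21 without micropylar replicate 1 (0.0562) and that of TIL without micropylar replicate 2 (0.116), cellularized replicate 1 (0.0592) or cellularized replicate 2 (0.0606), with equal medians (0.0519) and without the variance trend (0.0753).

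UDP-glycosyltransferases, which attach sugars to small molecules, were higher in 3 of 30 tested and lower in 0 (4.26% and 2.31% over all probe sets), and with equal medians 2 and 1. UGT87A2 had the highest signal of the 3, 5351 and 2619.9 against 791 and 238 (difference 3.06, SE 0.61, adjusted p = 0.00554), and an embryo mean of 5135. UGT71B1 gave 603 and 489 against 67.9 and 52.4 (difference 2.88, SE 0.65, adjusted p = 0.0126). UGT84A3 gave 678 and 671 against 114 and 95.5 (difference 2.52, SE 0.69, adjusted p = 0.036). The groups were apart for each. The call of UGT87A2 ended without micropylar replicate 1 (0.111) or cellularized replicate 2 (0.0889). That of UGT71B1 ended without any 1 of the 4 arrays (0.0527 to 0.119). That of UGT84A3 ended without any 1 of the 4 arrays (0.122 to 0.184) and under 4 of the other 11 alternatives (0.0557 to 0.0867).

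Of 10 tested genes of seed storage and oil bodies 1 was called (6.57% over all probe sets), BETA-VPE, a vacuolar processing enzyme that matures storage proteins. It gave 1161 and 1006 against 261 and 410.1 (difference 1.68, SE 0.44, adjusted p = 0.0287), below its chalazal seed coat mean of 3508. The call ended without any 1 of the 4 arrays (0.0565 to 0.194) and under 3 of the other 11 alternatives (0.055 to 0.0821).

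Some regulators and signalling genes were called, where 6.57% of all probe sets were. LBD16, a LOB-domain factor known from lateral root formation, gave 2133 and 2258 against 199 and 230, a difference of 3.26 (SE 0.74, adjusted p = 0.0128), and no other compartment had a mean above 122. ROXY2, a glutaredoxin known from anther development, gave 643 and 599 against 8.92 and 10.9 (difference 4.62, SE 0.87, adjusted p = 0.0039), and its highest mean elsewhere was 45.6. PUB22, the only 1 of 18 tested jasmonate and defence genes called, is a ubiquitin ligase that dampens immune signalling. It gave 257 and 280.4 against 6.09 and 13 (difference 3.49, SE 0.79, adjusted p = 0.0126). ROXY2 and PUB22 did not pass the filter on 4 arrays. A gene could pass the filter used on the micropylar arrays alone, where both were high. Their p-values and the count of 1 of 18 therefore only describe them. The call of LBD16 ended without any 1 of the 4 arrays (0.0657 to 0.104), that of ROXY2 without micropylar replicate 1 (0.0544) and that of PUB22 without any 1 of the 4 arrays (0.0544 to 0.0958).

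CR4 (ARABIDOPSIS CRINKLY4) is a receptor kinase of epidermal cells and endosperm that acts in forming the embryo's cuticle. It gave 742 and 525 against 200.2 and 23.8, a difference of 2.79 (SE 0.74, adjusted p = 0.0289), and the cellularized replicates were far apart. The call ended without micropylar replicate 1 (0.205), micropylar replicate 2 (0.104) or cellularized replicate 2 (0.292) and under 3 of the other 11 alternatives (0.052 to 0.078). GSO1, a receptor that acts in the embryo to seal its cuticle, was not called (difference 1.41, SE 0.79, adjusted p = 0.338).

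Among hormone genes, 1 of 11 auxin genes was called (6.57% over all probe sets), WES1, which joins auxin to amino acids. It gave 207 and 125 against 23.0 and 5.40 (difference 2.62, SE 0.76, adjusted p = 0.0455), and the call ended without any 1 of the 4 arrays (0.09 to 0.269) and under 6 of the other 11 alternatives (0.0512 to 0.0793). Of 10 tested cytokinin genes 0 were called. In that list ARR15 and RR16, both response regulators of the type induced by cytokinin, lay in opposite directions, with 1189.6 and 807 against 153 and 192 (difference 2.41, SE 0.76, adjusted p = 0.0653) and 328 and 411 against 1669 and 1909.8 (difference -2.23, SE 0.69, adjusted p = 0.06), and with equal medians RR16 was called lower. Of 8 tested endosperm regulators, 12 AGAMOUS-like factors, 19 histone and chromatin genes, 4 pectin enzymes, 3 WRKY factors, 4 genes of nitrogen, metal or phosphate transport, 2 of brassinosteroid or ethylene and 3 of gibberellin or abscisic acid 0 were called, though with equal medians 1 chromatin gene was lower. With 6.57% of all probe sets called, counts of 0 or 1 in lists this short do not set a list apart. Of 4 tested bHLH factors bHLH115 was higher, with 2467 and 1017 against 469 and 384 (difference 1.86, SE 0.49, adjusted p = 0.0268), and the call ended without micropylar replicate 1 (0.327), cellularized replicate 1 (0.0874) or cellularized replicate 2 (0.14), with equal medians (0.0811) and without the variance trend (0.0602). Over all 15951 probe sets 3317 had an unadjusted p below 0.05, and a miss does not show equal levels.

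Genes of cell division were lower in 3 of 14 tested and higher in 0 (2.31% and 4.26% over all probe sets), with a median of -1.22, and in 10 of the 14 both micropylar arrays lay below both cellularized arrays, where 23.2% of all probe sets did. BUB3.1, a protein of the spindle checkpoint, gave 354 and 259 against 1857 and 2425, a difference of -2.75 (SE 0.56, adjusted p = 0.00659). 3xHMG-box2, a chromosomal protein that gathers on mitotic chromosomes, gave 2473 and 3339 against 9109 and 14771 (difference -2.01, SE 0.44, adjusted p = 0.0104). PRL, the MCM7 subunit that licenses replication origins, gave 386 and 588 against 1312 and 1929 (difference -1.71, SE 0.48, adjusted p = 0.0414). The aurora kinase AUR3 was just short of the threshold with 95.9 and 154 against 437 and 876 (difference -2.20, SE 0.67, adjusted p = 0.0555), and TOPII, topoisomerase II, gave 1799 and 1448 against 3137 and 5806 (difference -1.39, SE 0.50, adjusted p = 0.106). With equal medians 4 were called lower and with quantile normalization 2. The call of BUB3.1 ended without micropylar replicate 2 (0.0701) or cellularized replicate 2 (0.065), that of 3xHMG-box2 without micropylar replicate 1 (0.121) or cellularized replicate 2 (0.116) and without the variance trend (0.0667) and that of PRL without any 1 of the 4 arrays (0.0913 to 0.277) and under 4 of the other 11 alternatives (0.0522 to 0.0794). SIM, a given marker that acts against division, ran the other way, as given above. The other 2 tested genes of its list lay below 0 and were not called, the lowest at -0.91.

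Cytoskeletal genes were lower in 4 and higher in 1 of 44 tested, where the background is 2.31% and 4.26%, and the list's median was -0.19. PLIM2a, an actin-bundling protein known from pollen, gave 1.94 and 1.68 against 489.8 and 96.4, a difference of -3.74 (SE 0.96, adjusted p = 0.024). TUB1, a beta-tubulin, gave 69.8 and 107 against 1494 and 692 (difference -3.33, SE 0.75, adjusted p = 0.0124), and TUB7 gave 2683 and 1630.2 against 5883 and 6706 (difference -1.58, SE 0.32, adjusted p = 0.007). TRM21, of a family that recruits the microtubule-organizing protein TON1, was higher with 186 and 215 against 6.25 and 3.05 (difference 3.39, SE 0.80, adjusted p = 0.0156). NET3A, an actin-binding protein, gave 999.9 and 728 against 2500.1 and 2504 (difference -1.53, SE 0.45, adjusted p = 0.0477). The call of PLIM2a ended without micropylar replicate 1 (0.136), micropylar replicate 2 (0.117) or cellularized replicate 1 (0.24) and without the variance trend (0.0538). That of TUB1 ended without micropylar replicate 1 (0.119), micropylar replicate 2 (0.0565) or cellularized replicate 1 (0.128). That of TUB7 ended without micropylar replicate 2 (0.101) or cellularized replicate 2 (0.0651) and without the variance trend (0.0582). That of TRM21 ended without any 1 of the 4 arrays (0.0708 to 0.104). That of NET3A ended without any 1 of the 4 arrays (0.143 to 0.263) and under 6 of the other 11 alternatives (0.0561 to 0.0723).

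Chaperone genes were lower in 5 of 9 tested and higher in 0 (2.31% and 4.26% over all probe sets), the same with both scalings, with a median of -1.22. ATERDJ3B, a co-chaperone of BiP in the endoplasmic reticulum, gave 1628 and 3018 against 11524 and 15024, a difference of -2.56 (SE 0.31, adjusted p = 0.000193), and stayed called under all 15 alternatives. Hop2 and Hop3 link HSP70 to HSP90. Hop2 gave 1062 and 909 against 3473 and 2960.5 (difference -1.69, SE 0.32, adjusted p = 0.00371) and Hop3 825 and 329 against 2049 and 2893 (difference -2.18, SE 0.60, adjusted p = 0.0346). The calreticulin gene CRT1b, for a calcium-binding chaperone of the same organelle, gave 2653 and 2489 against 5019.8 and 10404 (difference -1.49, SE 0.39, adjusted p = 0.0274), and ATERDJ2A, which acts in protein import there, 2131 and 2109.7 against 4471 and 5527 (difference -1.22, SE 0.31, adjusted p = 0.0219). Hop2 stayed called throughout. The call of Hop3 ended without any 1 of the 4 arrays (0.058 to 0.293), with a pseudocount of 1 (0.05) and without the variance trend (0.099), that of CRT1b without micropylar replicate 1 (0.136), micropylar replicate 2 (0.138) or cellularized replicate 2 (0.276) and without the variance trend (0.126) and that of ATERDJ2A without any 1 of the 4 arrays (0.0651 to 0.151) and without the variance trend (0.124).

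Genes of ESCRT complexes, which sort membrane proteins into vesicles bound for the vacuole, were lower in 4 of 9 tested and higher in 0 (2.31% and 4.26% over all probe sets), with a median of -0.96. VPS24.2 gave 499 and 349 against 1179 and 3507 (difference -2.24, SE 0.61, adjusted p = 0.0346), VPS24.1 1031 and 1385 against 4048 and 3647 (difference -1.67, SE 0.37, adjusted p = 0.0116) and VPS22 714 and 844 against 3275 and 2589 (difference -1.89, SE 0.38, adjusted p = 0.00598). VPS20.1 gave 252 and 561 against 1336 and 1142 (difference -1.67, SE 0.49, adjusted p = 0.0469). The groups were apart for all 4, and VPS46.2 and VPS2.2 lay at 0.50 and 0.26 with no call. The list had 4 calls with equal medians and 3 with quantile normalization. It had 0 without micropylar replicate 1, 2 without micropylar replicate 2, and 1 without either cellularized array. The lists of chaperones, ESCRT genes, tetraspanins, UDP-glycosyltransferases, and dehydration genes and metallothioneins were drawn up after their members' values were seen, so their counts describe the members and support nothing further.

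Several single genes were among the largest falls. scpl50, a serine carboxypeptidase-like protein, gave 221 and 91.8 against 1772 and 1791, a difference of -3.49 (SE 0.54, adjusted p = 0.000932), and SCPL45 of the same family gave 825 and 793 against 4266 and 3755 (difference -2.28, SE 0.52, adjusted p = 0.013). They were the lower ones of 48 tested protease and cell death genes, in which ARA12, the aspartic protease APA1 (difference 1.80, SE 0.26, adjusted p = 0.000563) and the protease inhibitor SERPIN1 (difference 1.83, SE 0.52, adjusted p = 0.0397) were higher. That is 3 higher and 2 lower of 48, where 4.26% and 2.31% of all probe sets were. The transcription factor bZIP44 was the only 1 of 8 tested bZIP factors called (6.57% over all probe sets). It gave 1449 and 1141 against 5699 and 6864 (difference -2.27, SE 0.36, adjusted p = 0.00108), and its chalazal seed coat mean was higher still, 20629. scpl50, bZIP44, ARA12 and APA1 stayed called under all 15 alternatives, while the call of SCPL45 ended without any 1 of the 4 arrays (0.0674 to 0.0995) and with a pseudocount of 1 (0.0689). That of SERPIN1 ended without micropylar replicate 1 (0.244), micropylar replicate 2 (0.117) or cellularized replicate 2 (0.258) and under 4 of the other 11 alternatives (0.0647 to 0.11).

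The glutathione transferase GSTU26, which adds glutathione to reactive compounds, gave 28.7 and 113 against 771 and 788 (difference -3.39, SE 0.77, adjusted p = 0.0128). GSTU16 gave 829 and 757 against 2965 and 2999 (difference -1.89, SE 0.52, adjusted p = 0.0352), and with the beta-glucosidase BGLU41 (difference -1.61, SE 0.45, adjusted p = 0.0399) these were the 3 lower genes of 20 tested, with 0 higher (2.31% and 4.26% over all probe sets). PHV, a factor that specifies the upper side of lateral organs, gave 79.0 and 259 against 1023 and 1228 (difference -2.81, SE 0.64, adjusted p = 0.0131), and its cellularized mean exceeded the embryo's 512. The call of GSTU26 ended without micropylar replicate 1 (0.17), cellularized replicate 1 (0.0745) or cellularized replicate 2 (0.0771) and with a pseudocount of 1 (0.0592). That of GSTU16 ended without any 1 of the 4 arrays (0.143 to 0.166) and under 3 of the other 11 alternatives (0.0554 to 0.074). That of BGLU41 ended without any 1 of the 4 arrays (0.129 to 0.226) and under 4 of the other 11 alternatives (0.0509 to 0.0597). That of PHV ended without micropylar replicate 1 (0.187), cellularized replicate 1 (0.0638) or cellularized replicate 2 (0.0919).

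MYBC1, a MYB-like factor, gave 56.2 and 36.4 against 610 and 951 (difference -3.66, SE 0.93, adjusted p = 0.0235). PCME, an esterase that removes methyl groups from prenylated proteins, gave 16.3 and 14.3 against 278 and 268 (difference -3.21, SE 0.66, adjusted p = 0.007). SAH7, related to the olive pollen protein Ole e 1, gave 381 and 537 against 2164 and 1876 (difference -2.12, SE 0.50, adjusted p = 0.0169). Each had both micropylar arrays below both cellularized arrays. The call of MYBC1 ended without any 1 of the 4 arrays (0.0831 to 0.146), with a pseudocount of 1 (0.078) and without the variance trend (0.0625). That of PCME ended without micropylar replicate 1 (0.057), micropylar replicate 2 (0.0524) or cellularized replicate 1 (0.0516). That of SAH7 ended without any 1 of the 4 arrays (0.0628 to 0.16).

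**Figure D4:**
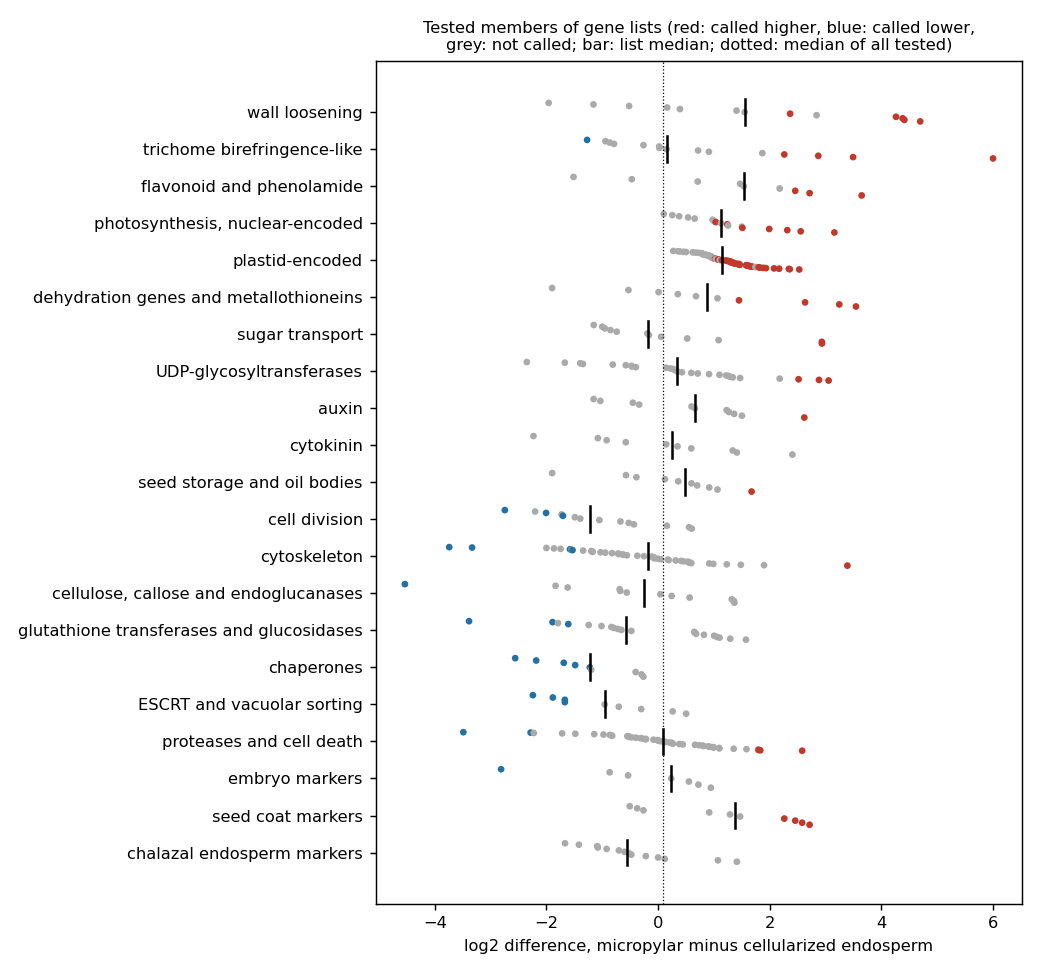
The log2 difference (micropylar minus cellularized) of each tested member of 21 gene lists, with members called higher in red, called lower in blue and others in grey, a bar at the list's median and a dotted line at the median of all probe sets, 0.08. Wall loosening, flavonoid, plastid and nuclear photosynthesis lists have medians from 1.13 to 1.55 and chaperones and cell division medians of -1.22, while the medians of the trichome birefringence-like, cytokinin and protease lists turn from above 0 to below it with equal medians.

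The called genes were then placed beside the other compartments. Of the 679 probe sets higher in the micropylar endosperm 380 (56.0%) had their highest mean there, 113 in general seed coat, 81 in chalazal seed coat, 59 in the embryo and 46 in chalazal endosperm. Among the 4 other compartments alone, the embryo held the highest mean for 36.5% of the 679 and the general seed coat for 31.8%, where the shares over all tested probe sets were 29.5% and 21.7%. The chalazal endosperm held it for 13.1%, where its share of all tested was 27.8%. Of the 369 lower in the micropylar endosperm 211 (57.2%) had their highest mean in the cellularized endosperm, and the 4 other compartments held shares of 19.2% to 29.8%, each within 2 percentage points of their share of all tested. Beside whole seeds, both micropylar arrays exceeded both whole seed arrays for 425 of the 679 (62.6%) and for 24.3% of all tested. These shares are descriptions, since the micropylar level enters both the call and the ranking.

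**Figure D5:**
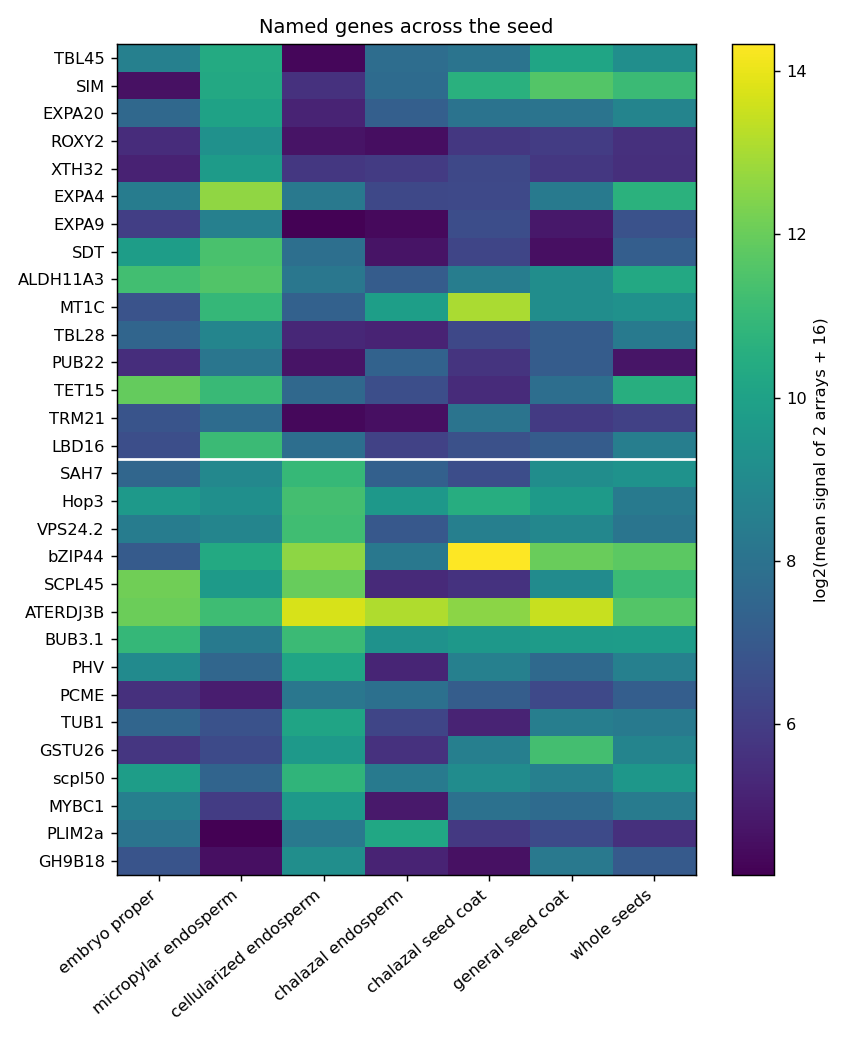
Mean signal of 2 arrays, as log2(mean signal + 16) on the colour scale, for the 15 largest rises (above the white line) and the 15 largest falls (below it) across the 6 compartments and whole seeds. EXPA4, XTH32, EXPA9, ROXY2 and LBD16 stand highest in the micropylar endosperm, SIM in general seed coat and TET15 in the embryo, while bZIP44 is highest in chalazal seed coat and PLIM2a in chalazal endosperm.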

How the data were processed

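The deposited values are array signal intensity per probe set, linear and 1 colour. The authors scaled each array to a mean of 500 after leaving out the lowest and highest 2% of probe sets, as read from the values, and the software GCOS is named per the submitters' processing notes, with no version. The genome build is not given in the sources used here, and no positions or sequences are given. The 64 control probe sets were left out. Those at or above their array's median on at least 2 of 14 arrays, 15951, were tested as log2(value + 16) with limma 3.58.1 in R 4.3.3. A probe set could thus enter through the 2 arrays of a single group, which bears on the counts of every list. The fit had 1 mean per group over all 14 arrays (7 residual degrees of freedom), so that 2 arrays per group borrow the spread of all 7 groups, and variances were moderated with a trend. A call needed a Benjamini-Hochberg adjusted p below 0.05, two-sided, and at least 2-fold.

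The platform annotation supplied gene names: 13513 probe sets name 1 gene, 503 several and 8794 none, and 1580 carry a symbol other than the locus code, of which 1204 were tested. Of the 13513, 13436 matched the RefSeq gene table. Of the 1048 calls 136 carry a symbol, 415 a locus code only, 482 no gene and 15 several genes. Named were the 15 largest rises and 15 largest falls among calls with a symbol and no overlap between groups, and list members. The comparison, its members and the 38 gene lists were chosen with earlier results of these data known. The lists of chaperones, ESCRT genes, tetraspanins, UDP-glycosyltransferases, and dehydration genes and metallothioneins were added after their values were seen. Lists hold only genes that a probe set names alone, so a missing member says nothing of its expression.

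On data simulated for this comparison with 15951 probe sets, the fit called 12%, 68%, 96% and 100% of 50 seeded genes each with true log2 differences of 1, 2, 3 and 4, with 4 false calls. Seeded genes were drawn from higher signal levels only, and all other probe sets were set to no difference. Noise was normal, with a spread smoothed over signal level. These rates therefore need not hold for genes near the floor or with a wider spread of their own. Precision is limited by the number of arrays. Replicate numbers did not pair the groups: their replicate differences correlated at 0.043 across probe sets. The 15 alternatives covered the pseudocount (1 and 64), the filter, scaling, the arrays fitted, the variance trend, replicate as a block and leaving out each array.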

Additional observations from a re-analysis of the deposited data

How the results depend on the processing

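The count of 1048 calls ran from 823 to 1397 under 9 alternatives: pseudocounts of 1 (823) and 64 (1310), no filter (946), a filter on 4 arrays (1022), equal medians (1043), quantile normalization (832), only the 4 arrays fitted (1397), and fits without the whole seed arrays (970) or the chalazal endosperm arrays (1192). Without the variance trend it was 650, and with a single array of the 4 left out it was 255 to 460, lowest without micropylar replicate 1 (255) and micropylar replicate 2 (377), then cellularized replicate 2 (424) and 1 (460). In those fits the lone array is assumed to vary like the other groups. Called list members, 104, numbered 53 without the variance trend and 36 to 59 with an array left out. The share of calls that were higher, 64.8%, was 39.3% with equal medians and 59.2% to 71.5% under the others. With replicate as a block, whose numbers do not pair the samples, 1022 probe sets and 102 list members were called. The pair had the fewest calls of the 15 under each setting in which all 15 were compared. The fits with only 4 arrays or without chalazal endosperm could not give that place. For 115 named genes 15 alternatives gave 1718 results, since 7 genes, among them EXPA9, ROXY2, XTH32 and PUB22, did not pass the filter on 4 arrays. Of these 1315 stayed called, 403 lost the call in the same direction and 0 reversed, and 21 genes stayed called wherever they were tested. In 5 of the 15 named rises and 3 of the 15 named falls the lower group's mean lay below the pseudocount of 16, so that the size of the difference depends on it, as in PLIM2a with -6.29 at a pseudocount of 1 and -2.18 at 64.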

Other observations

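Other called genes carry a symbol but are in no list, and those given here were chosen after their values were seen. PRXR1, a peroxidase, gave 21176 and 29925 on the micropylar and 6914 and 6416 on the cellularized arrays, a log2 difference of 1.92 (SE 0.28, adjusted p = 0.000572) in limma. OBE1, a PHD-finger protein of embryonic meristems, was lower with 4886 and 4860.4 against 17171 and 21365 (difference -1.97, SE 0.27, adjusted p = 0.000368). LPA19, which helps assemble photosystem II, gave 1267 and 1276 against 159 and 185 (difference 2.78, SE 0.52, adjusted p = 0.0035). These 3 stayed called under all 15 alternatives. HPR, the hydroxypyruvate reductase of photorespiration, gave 2012 and 2483 against 425 and 469.9 (difference 2.28, SE 0.65, adjusted p = 0.0428). PWD, which primes starch for breakdown, gave 1131 and 889 against 247 and 239.8 (difference 1.97, SE 0.50, adjusted p = 0.0234). The call of HPR ended without any 1 of the 4 arrays (0.143 to 0.216) and under 5 of the other 11 alternatives (0.0611 to 0.123), and that of PWD without any 1 of the 4 arrays (0.0919 to 0.185) and with equal medians (0.0624). The mitochondrial gene cox2, for a subunit of cytochrome oxidase, gave 5739 and 4136 against 986 and 1876 (difference 1.83, SE 0.33, adjusted p = 0.00291), and the call ended without micropylar replicate 1 (0.061) or cellularized replicate 1 (0.0527). SDH2-2, a nuclear gene for a subunit of succinate dehydrogenase, was lower (difference -1.59, SE 0.34, adjusted p = 0.00822), and the call ended without micropylar replicate 1 (0.0619), micropylar replicate 2 (0.065) or cellularized replicate 2 (0.0834).

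Several of the largest differences belonged to genes known here only by their locus code, which were chosen after their values were seen and are given no role. AT5G38980 gave 3503 and 2232 against 3.62 and 32.2, a difference of 6.52 (SE 0.95, adjusted p = 0.00061). AT4G38410 gave 4826 and 4494 against 81.1 and 32.1 (difference 6.10, SE 0.79, adjusted p = 0.000279), and AT1G09370 5169 and 3655 against 71.7 and 44.2 (difference 5.91, SE 0.75, adjusted p = 0.000279). All 3 stayed called wherever they were tested, which for AT4G38410 leaves out the filter on 4 arrays, and no other compartment had a mean above 170.4, 59.7 and 237 for them in that order. In the other direction, AT3G07820 gave 29.2 and 11.9 against 2443 and 843 (difference -5.36, SE 1.27, adjusted p = 0.0161), with a mean of 2776 in chalazal endosperm. AT1G55990 gave 47.6 and 40.6 against 1495 and 2679 (difference -5.07, SE 0.97, adjusted p = 0.00435), and no other compartment exceeded a mean of 40.1. The call of AT3G07820 ended without any 1 of the 4 arrays (0.0503 to 0.14) and without the variance trend (0.0634), and that of AT1G55990 without cellularized replicate 2 (0.0569).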
